A study of Mus musculus with 8 samples.

Results

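The peptidyl arginine deiminases were examined in the gene array of Neuro2a cells, a mouse neuroblastoma line from the AJ strain. All 5 genes of the family (Padi1, Padi2, Padi3, Padi4 and Padi6) were found by symbol, each with 1 transcript cluster. Such a cluster is a set of probes summarized as 1 signal, and 19938 genes had a cluster that named no other gene. Anchorage dependent (AD) cells had grown attached in DMEM with fetal bovine serum (4 arrays). Anchorage independent (AI) cells came from floating tumorspheres kept in serum-free NeuroCult NSC medium, to which heparin, bFGF and EGF were added (4 arrays). Attachment and medium changed together and cannot be told apart. The family was proposed with the difference between AD and AI cells in view, so the values of its members are a description and carry no test.

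Peptidyl arginine deiminases turn arginine within proteins into citrulline and thereby remove a positive charge. They act when calcium is high. Padi2 is the most widely expressed of them and is known in the brain from oligodendrocytes and astrocytes. Padi1 and Padi3 act on keratins, filaggrin and trichohyalin in epidermis and hair follicle. Padi4 citrullinates histones in granulocytes, and Padi6 belongs to the oocyte. An array reads the transcripts only, so citrulline itself was not measured.

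The genes lie next to each other on chromosome 4, in the order Padi6, Padi4, Padi3, Padi1 and Padi2. Padi2 is on the plus strand and the other 4 are on the minus strand, so Padi1 and Padi2 are read away from each other. The RefSeq promoters (GRCm38.p6) of Padi2 and Padi3, which differed between the phenotypes, and of Padi1, which lies between them, are printed 5′ to 3′ up to the first annotated base of the gene. Capitals mark GC boxes (GGGCGG) and CCAAT boxes (CCAAT) on either strand.
Padi2, chr4:140906110-140906335, plus strand: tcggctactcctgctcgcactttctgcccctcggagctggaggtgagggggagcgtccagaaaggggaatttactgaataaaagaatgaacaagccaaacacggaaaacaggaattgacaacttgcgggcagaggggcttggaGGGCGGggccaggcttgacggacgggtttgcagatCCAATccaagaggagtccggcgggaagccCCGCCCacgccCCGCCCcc
Padi1, chr4:140845779-140846028, minus strand: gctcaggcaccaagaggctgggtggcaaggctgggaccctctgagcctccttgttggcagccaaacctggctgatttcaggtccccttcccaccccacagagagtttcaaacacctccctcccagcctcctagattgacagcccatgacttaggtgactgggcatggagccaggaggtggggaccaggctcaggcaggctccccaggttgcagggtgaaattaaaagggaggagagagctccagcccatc
Padi3, chr4:140810649-140810898, minus strand: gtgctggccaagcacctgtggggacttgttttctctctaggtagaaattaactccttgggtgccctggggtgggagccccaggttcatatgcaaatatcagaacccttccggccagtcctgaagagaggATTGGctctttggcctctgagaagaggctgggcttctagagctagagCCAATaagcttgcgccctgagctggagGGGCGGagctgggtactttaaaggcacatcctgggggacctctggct

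The promoter window of 250 bases held 17 CpG dinucleotides for Padi2, more than 76.5% of the 32851 RefSeq promoter windows of that length. The same window held 3 CpG for Padi3, 3 for Padi4, 1 for Padi6 and none for Padi1. For Padi2 and Padi4 the window runs into the annotated gene, with 226 and 214 bases before it. Counts cover all 250 bases. Padi2 had 3 GC boxes and Padi3 and Padi6 had 1 each, while 32.7% of all windows held at least 1. CCAAT boxes numbered 1 in Padi2, 2 in Padi3 and 1 in Padi6, against 33.8% of all windows with any. Padi4 was the member with a TATA box (TATAAA), which 12.4% of windows held, and this box lies within the annotated gene. E boxes (CANNTG), found in 66.2% of windows, numbered 2 each in Padi3, Padi4 and Padi6 and none in Padi1 and Padi2. These are matches of letters and not measured sites.

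Padi2 and Padi3 had the largest differences among the members, in opposite directions, and Padi4 differed by less in the direction of Padi2. Padi2 was at 6.86, 7.17, 7.05 and 7.22 log2 on AD arrays 1 to 4 and at 9.23, 9.38, 9.07 and 9.0 log2 on AI arrays 1 to 4. Every AI array thus lay above every AD array. The means were 7.07 ± 0.16 and 9.17 ± 0.17 log2 (SD, n = 4 each), a log2 difference of AD minus AI of -2.09, which is 4.27-fold higher in AI cells. The signal exceeded the median of its array on all 8 arrays. In bulk RNA, fewer cells with a transcript and less of it per cell cannot be told apart.

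Padi3 ran the other way. It was at 7.10, 7.24, 7.23 and 7.61 log2 on the AD arrays and at 5.78, 5.99, 5.76 and 5.70 log2 on the AI arrays. Again the phenotypes did not overlap, and AD replicate 4 was the brightest array. The means were 7.30 ± 0.22 and 5.81 ± 0.12 log2 (SD, n = 4 each), a log2 difference of 1.49, which is 2.81-fold higher in AD cells. In 3 of the 4 AI arrays the signal lay below the array's median, and the background under it was not measured here. Relative to Padi3, Padi2 shifted by 3.58 log2 between the phenotypes, a 12-fold change of the ratio of the signals of both genes toward Padi2 in AI cells. The difference of Padi2 minus Padi3 within an array had an SD of 0.13 log2 over the AD arrays and 0.07 log2 over the AI arrays.

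**Figure D1:**
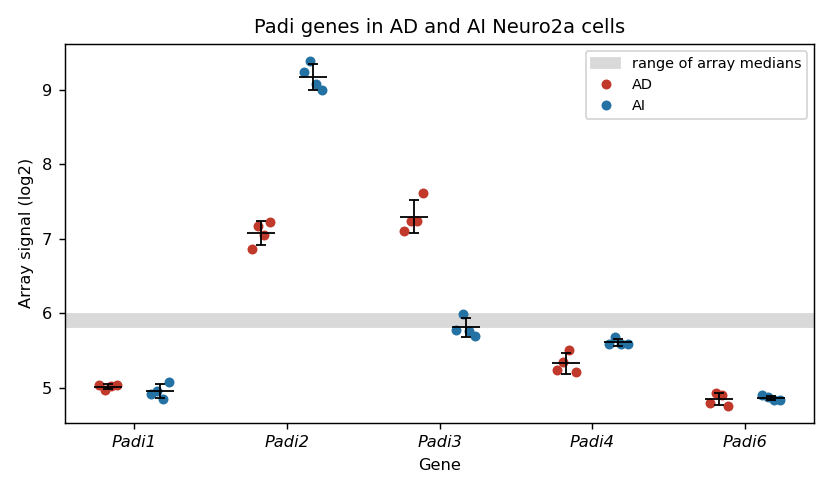
Array signal (log2) of the 5 Padi genes in AD (red) and AI (blue) Neuro2a cells. Dots are single arrays (4 for each phenotype), the black bars are means with SD, and the gray band spans the median signals of the arrays, from 5.82 to 5.99 log2. Padi2 is higher in all AI arrays and Padi3 in all AD arrays, and levels are not comparable between genes.

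Padi1, Padi4 and Padi6 were dim, below the median of the array on all 8 arrays. Padi4 was at 5.24, 5.34, 5.51 and 5.21 log2 on the AD arrays and at 5.59, 5.68, 5.58 and 5.58 log2 on the AI arrays. The phenotypes did not overlap, but the log2 difference of -0.28 is under 1.5-fold. Padi1 ranged from 4.85 to 5.08 log2 over the 8 arrays with a log2 difference of 0.06, and Padi6 ranged from 4.76 to 4.93 log2 with -0.02. For both, the arrays of the phenotypes overlapped. Whether their transcripts were present at such signals was not tested.

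A cluster was called when its adjusted p was under 0.05 in limma (Benjamini-Hochberg, 35556 clusters tested) and its fold was at least 1.5. Called were 3.93% of all clusters, 1.39% as higher and 2.53% as lower in AD cells, so that 64.5% of the calls were lower in AD cells. This share was 47.0% with median centring, in which the arrays were shifted to a common median. At any fold, 8.50% of clusters were higher and 9.62% lower in AD cells at an adjusted p under 0.05. With 1 cluster per named gene, 4.41% of genes were called. Among the members, 1 was called higher, 1 lower and 3 were not called, and the arrays did not overlap for 3 of 5, against 22.1% of all clusters. Nothing is read from these counts, because the family was chosen on the same comparison. Of 19938 genes, Padi2 had rank 9 from the lowest difference and Padi3 rank 20 from the highest. The differences of 95% of all clusters lay between -0.61 and 0.47 log2, with a median of 0.00.

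**Figure D2:**
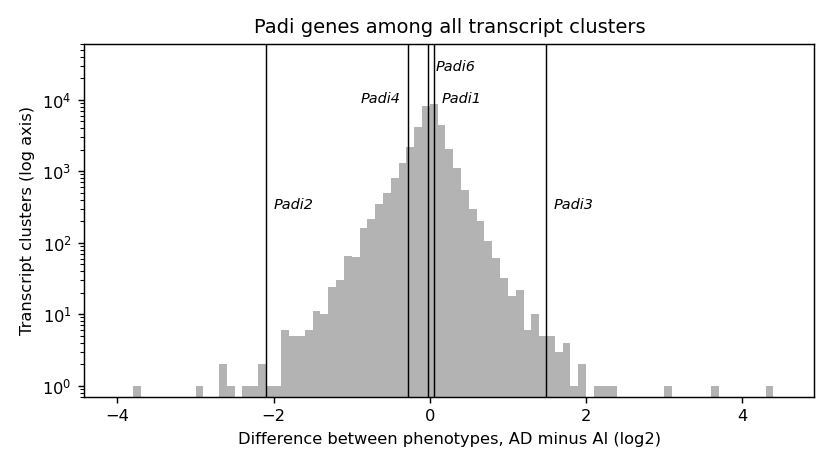
Number of transcript clusters (log axis) by difference between the phenotypes, AD minus AI (log2), with the Padi genes as vertical lines. Padi2 at -2.09 and Padi3 at 1.49 lie in the opposite tails, and Padi1, Padi4 and Padi6 lie within the bulk, from -0.28 to 0.06.

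The genes around the family were examined next, as their differences did not enter the choice of the members. Of the 10 protein-coding genes on each side, 18 were measured by a cluster of their own (all but Emc1 and Ubr4). Of these 1 was lower in AD cells, 17 were not called and none was called higher. Among all clusters, 2.53% were called lower and 1.39% higher. The called gene was Arhgef10l, a guanine nucleotide exchange factor, with 8.09 ± 0.09 log2 over AD arrays and 8.73 ± 0.07 log2 over AI arrays (SD, n = 4). Its log2 difference was -0.64 (adjusted p = 0.000203 from limma), and it fell below 1.5-fold at -0.57 with median centring.

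The nearest genes on both sides were not called. Sdhb, the iron-sulfur subunit of succinate dehydrogenase, follows Padi2 and had a log2 difference of -0.14 (adjusted p = 0.103 from limma). Rcc2, a regulator of chromosome condensation next to Padi6, had 0.20 (adjusted p = 0.0969 from limma). Under 1.5-fold, the mitochondrial dehydrogenase gene Aldh4a1 with -0.51, the microfibril gene Mfap2 with -0.41 and the cilium gene Cplane2 with 0.29 also had an adjusted p under 0.05, and these 3 were chosen with their values known. The median of the 18 neighbours was 0.02 log2, with a range from -0.64 to 0.29.

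**Figure D3:**
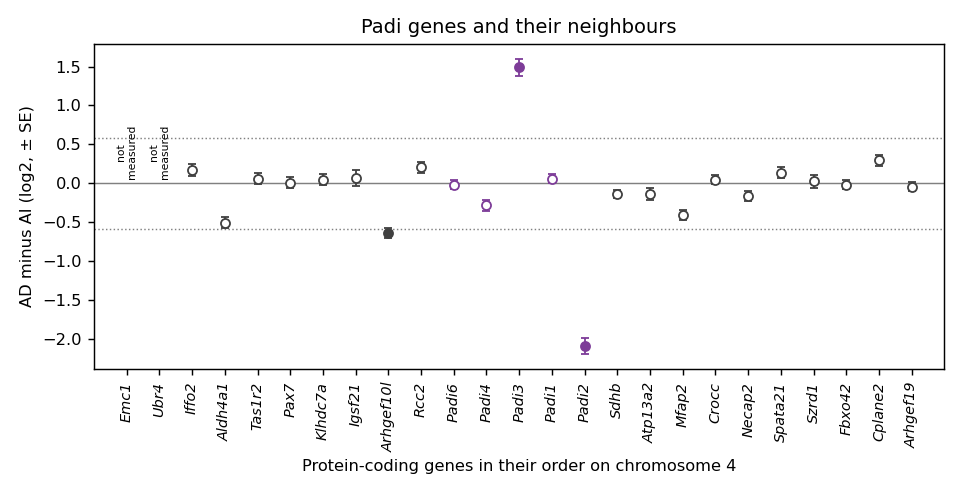
Difference between the phenotypes, AD minus AI (log2), for the Padi genes (purple) and 10 protein-coding genes on each side, in their order on chromosome 4. Bars are standard errors from limma, filled points are called, and the dotted lines are 1.5-fold. Padi3 and Padi2 stand at 1.49 and -2.09, and the measured neighbours lie between -0.64 and 0.29.

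Several genes that move calcium, which these enzymes need but which was not measured here, were lower in AD cells. Of 22 measured genes of calcium entry, release and removal, 5 were lower in AD cells, 17 were not called and none was called higher. Over all clusters, 2.53% were called lower and 1.39% higher in AD cells. Counted as this list is, by 1 cluster per named gene, 4.41% were called in either direction. The list was chosen with earlier results of these data known, so its counts are a description and nothing is read from them. Atp2a3, a pump that fills the calcium store, was 1.84-fold lower in AD cells, at 7.22 ± 0.19 log2 where AI cells had 8.10 ± 0.06 log2 (SD, n = 4), and Atp2b3, a pump of the plasma membrane, was 1.83-fold lower. P2rx4, an ATP-gated channel, was 1.55-fold lower, Itpr2, a release channel of the store, 1.53-fold, and Orai3, a store-operated channel, had a log2 difference of -0.60. The AD and AI arrays did not overlap for 10 of the 22 genes, the 5 called ones among them, against 22.1% of all clusters. The adjusted p was 6.45e-05 for Atp2b3 and 0.000256 for Atp2a3 (limma). The common forms of these pumps, Atp2a2 and Atp2b1, had log2 differences of 0.07 and 0.10, and Orai1 had -0.01. Whatever the fold, the adjusted p was under 0.05 for 8 of 22 genes toward AI cells, with no gene toward AD cells. Over all clusters these shares were 9.62% and 8.50%. The median of the list was -0.07 log2, against 0.00 for all clusters. After quantile normalization these medians were 0.019 and 0.017 log2, and after median centring 0.012 and 0.076 log2. Only Atp2a3 and Atp2b3 stayed called with median centring. Itpr2 also fell below 1.5-fold with quantile normalization (-0.54). Single arrays also decided calls near 1.5-fold, which were lost for P2rx4 without AD replicate 1 (-0.57), for Itpr2 without AI replicate 4 (-0.57) and for Orai3 without AD replicate 3 (-0.57) or AI replicate 3 (-0.55).

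Among proteins known to be citrullinated, 2 of 24 measured were lower in AD cells, 22 were not called and none was called higher. Fn1, the matrix protein fibronectin, was 1.60-fold lower in AD cells, at 10.60 ± 0.06 log2 where AI cells had 11.27 ± 0.02 log2 (SD, n = 4). Its log2 difference was -0.68 (adjusted p = 5.18e-05 from limma). Cxcl10, an interferon-induced chemokine, had 6.87 ± 0.14 against 7.67 ± 0.13 log2, a log2 difference of -0.80 (adjusted p = 0.000399 from limma). Vim, the intermediate filament vimentin, had -0.01, Npm1, the nucleolar protein nucleophosmin, 0.22, and E2f1, a transcription factor of the cell cycle, 0.005. Whatever the fold, the adjusted p was under 0.05 for 5 of 24 genes toward AI cells, among them Ing4, a chromatin reader, with -0.46, and the NF-kB subunit gene Rela with -0.37. Toward AD cells it was 1, Polr2a, the largest subunit of RNA polymerase II, with 0.38. The median of the list was 0.02 log2. Among all clusters 2.53% were called lower and 1.39% higher in AD cells, and at any fold 9.62% and 8.50% passed.

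Genes tied to methylation of the same residue, not all of them methylating enzymes, were not called. Of 13 measured genes of arginine methylation none was called in limma in either direction. At any fold, 3 had an adjusted p under 0.05 toward AD cells (Carm1, Prmt6 and Riok1) and 1 toward AI cells (Prmt2), with log2 differences from -0.29 to 0.38. The median of this list was 0.13 log2, with 10 genes above 0 and 3 below. With 1 cluster per named gene the median was 0.01 log2. Prmt5, the main symmetric methyltransferase, had 0.17. Of 21 genes that handle free arginine and citrulline, Nos1, the neuronal nitric oxide synthase, which makes free citrulline, was 1.55-fold lower in AD cells (adjusted p = 0.00125 from limma). The other 20 were not called, and the median of the list was -0.02 log2. Whatever the fold, the adjusted p was under 0.05 for 2 of 21 genes toward AD cells and 4 toward AI cells. For all clusters these shares were 8.50% and 9.62%, and 1.39% and 2.53% were called. Nos1 fell below 1.5-fold without AD replicate 1 (-0.56), without AI replicate 2 (-0.58) and with quantile normalization or median centring.

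Of 10 measured regulators linked to Padi transcription, Nfyc, a subunit of the factor that binds CCAAT boxes, was called higher in AD cells. It was at 9.21, 9.28, 9.21 and 8.59 log2 on the AD arrays and at 8.42, 8.36, 8.24 and 8.38 log2 on the AI arrays, a log2 difference of 0.72 (adjusted p = 0.00732 from limma), and AD replicate 4 lay close to the AI arrays. It fell just below 1.5-fold at 0.58 when all clusters of the gene were averaged. The other subunits Nfya and Nfyb had 0.05 and 0.21, Sp1, which binds GC boxes, had 0.11, and Esr1, the estrogen receptor, had -0.41 (adjusted p = 0.00304 from limma), under 1.5-fold. The other 9 were not called, and the median of the list was 0.04 log2. Whatever the fold, the adjusted p was under 0.05 for 2 of 10 genes toward AD cells and 1 toward AI cells. The shares of all clusters were 8.50% and 9.62%, and 1.39% and 2.53% were called.

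**Figure D4:**
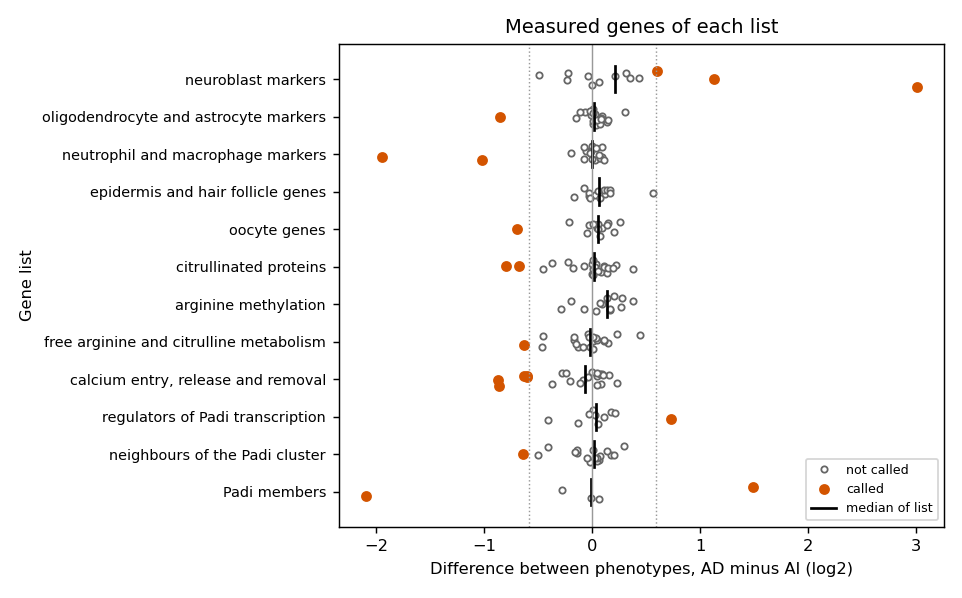
Difference between the phenotypes, AD minus AI (log2), for every measured gene of each list. Filled points are called, open points are not, the black bar is the median of the list and the dotted lines are 1.5-fold. The calcium list has 5 called genes, all lower in AD cells, and the arginine methylation list has none.

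Markers of the cell types in which the family is best known were mostly dim. An array's median has as many clusters below it as above, and the share of all clusters below it on every array was not counted. Of 20 oligodendrocyte and astrocyte genes, 15 were below the median of every array, Gfap, Olig2 and Sox10 among them, and the mean of the list was 5.84 to 5.95 log2 over the AD arrays and 5.85 to 5.91 log2 over the AI arrays. The others, with AD and AI means, were Aldoc (9.90 and 10.75 log2), Glul (9.65 and 9.35) and Cnp (8.31 and 8.38). Mbp (6.23 and 6.23) and Pdgfra (6.06 and 5.98) were also not below it on every array. Mbp, the myelin basic protein, had a log2 difference of 0.00, and its sign turned under some settings. Aldoc, a glycolytic enzyme used as an astrocyte marker, was called, 1.81-fold lower in AD cells (adjusted p = 0.00291 from limma), 19 were not called and none was called higher. Of 19 neutrophil and macrophage genes, 17 were below the median of every array, Ptprc and Elane among them. The mean of that list was 5.08 to 5.23 log2 over the AD arrays and 5.25 to 5.31 log2 over the AI arrays. Its median difference was -0.001 log2, so the genes did not shift as a group. The siderophore-binding gene Lcn2 and the gelatinase gene Mmp9 were lower in AD cells, with log2 differences of -1.95 and -1.02, 17 were not called and none was called higher. Among all clusters, 2.53% were called lower and 1.39% higher.

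Of 14 epidermis and hair follicle genes none was called in limma, 1 had an adjusted p under 0.05 at any fold, and 13 were below the median of every array, Krt5 among them. That gene was Lor, a protein of the cornified envelope, with 0.56 log2 toward AD cells, and it was called after quantile normalization, after median centring and without AI replicate 1. The mean of the list was 5.50 to 5.64 log2 over the AD arrays and 5.47 to 5.50 log2 over the AI arrays, and Flg was not measured. Of 14 oocyte genes, 11 were below the median of every array, Zp3 and Nlrp5 among them, and the mean was 5.57 to 5.67 log2 over the AD arrays and 5.57 to 5.64 log2 over the AI arrays. Tle6, a corepressor that joins the maternal complex of the egg, was called, 1.62-fold lower in AD cells (adjusted p = 0.000693 from limma), 13 were not called and none was called higher. Among all clusters, 2.53% were called lower and 1.39% higher in AD cells, and at any fold 9.62% and 8.50% passed.

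Markers of sympathetic neuroblasts, the labelled tumour type, were bright. None of the 13 measured was below the median of every array, and Hand2, a transcription factor of these cells, was at 10.11 log2 in both phenotypes. Dbh, the enzyme that makes noradrenaline, Phox2a, a transcription factor of the lineage, and Th, the first enzyme of catecholamine synthesis, were higher in AD cells with log2 differences of 3.01, 1.13 and 0.60. The other 10 were not called. The mean of these markers was 9.65 to 9.80 log2 over the AD arrays and 9.29 to 9.37 log2 over the AI arrays. Dbh had the largest difference of the list, whose median was 0.21 log2. Whatever the fold, the adjusted p was under 0.05 for 7 of 13 genes toward AD cells and 2 toward AI cells, which were Chgb, a protein of secretory granules, with -0.49 and the transcription factor gene Gata2 with -0.23. The part of these markers in the differences of the Padi genes was not tested.

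Genes with array profiles most like those of Padi2 and Padi3 were sought by the root mean square difference over the 8 arrays after each gene was centred on its mean. For Padi2 these were Edil3, an integrin ligand, at 0.12 log2, Lcn2 at 0.15, the axonal adhesion gene Nfasc at 0.18, Dhx58, a helicase of RNA sensing, at 0.19 and the platelet chemokine gene Pf4 at 0.19. Their differences of AD minus AI were -2.13, -1.95, -1.83, -1.89 and -1.78 log2. For Padi3, added after its values were seen, they were the vitamin D receptor Vdr at 0.07 log2, the complement inhibitor Cd59a at 0.13, the adenylyl cyclase Adcy7 at 0.17, the corepressor Hr (hairless) at 0.17 and the kinase-like gene Camkv at 0.17. Their differences were 1.40, 1.25, 1.31, 1.31 and 1.22 log2. In Vdr, Cd59a and Adcy7, as in Padi3, AD replicate 4 was the brightest array, at 8.28, 9.37 and 6.76 log2. The likeness is a description, since each of these genes was found by the difference between the phenotypes.

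**Figure D5:**
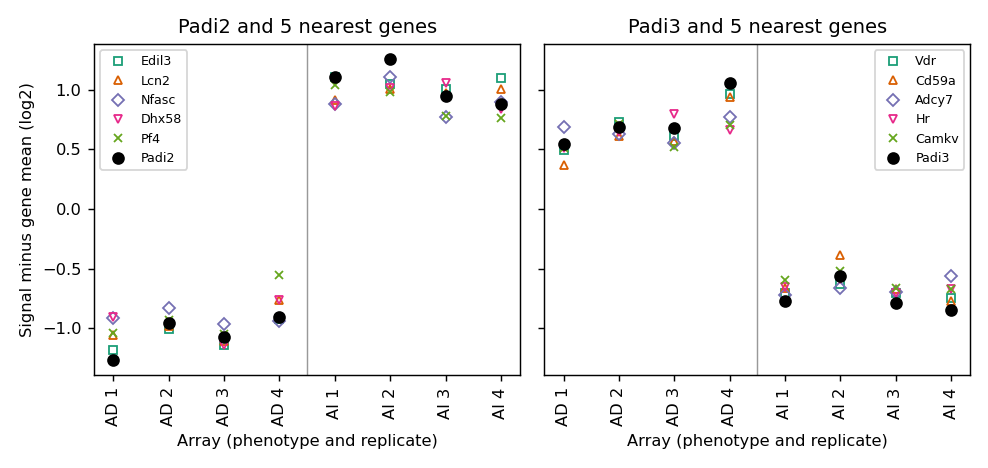
Signal minus the mean of the gene (log2) on each of the 8 arrays for Padi2 (left) and Padi3 (right), in black, and the 5 genes with the nearest profile, in open symbols and crosses. The vertical line parts AD from AI arrays. Vdr follows Padi3 most closely, at 0.07 log2, and Edil3 follows Padi2, at 0.12 log2.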

How the data were processed

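RNA of AD and AI cells was hybridized by the authors to Affymetrix mouse gene arrays, 4 per phenotype. The deposited values are log2 signals of 35556 transcript clusters, made by the authors with GCRMA in Partek 6.5 according to the submitters' notes, and were used as deposited. They are not centred by gene, and the log base could not be checked against scanner values. Clusters were named by the platform annotation, where 21789 carry 1 symbol, 1621 several and 12146 none, and 21698 of the former matched RefSeq (GRCm38.p6) by gene number. The brightest cluster by the mean of 8 arrays stands for a gene.

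Phenotypes were compared in limma 3.58.1 (R 4.3.3, lmFit and eBayes) over all clusters. On simulated data with 35556 clusters, the model recovered 84% of clusters that had been given a 1.75-fold change and 90% of those given 2-fold. Of the unchanged clusters, 5 were called. Only 50 clusters were changed at each fold and the noise was drawn independently, so recovery on the real arrays may differ. Plots and tables used Python 3.11.15. Arrays give no counts, and their number limits the precision. The labels call the samples biological replicates, while the methods speak of repeated hybridizations, so the p-values measure the spread between these arrays, which may be technical. Members and gene lists were chosen with earlier results of these data known. Named genes are all members, up to 4 called genes per list and direction with the largest change (all 5 of the calcium list), defining markers, the nearest neighbours and the 5 genes with the nearest profile. Other genes of the lists that are named without being called were chosen after their values were seen. The alternatives were other scalings, a filter on dim clusters, other variance models, array weights, a replicate block, other thresholds, the mean of a gene's clusters and leaving out each array. No pairing of the arrays by replicate number was seen in the signals, and the main comparison used none. A few genes of the lists are not reported here.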

Additional observations from a re-analysis of the deposited data

Results flagged for a closer look

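In 88 groups of 4 arrays examined, 6 held an array that stood far from the other 3, and chance gives about 1 in 20 groups. Padi4 was at 5.68 log2 in AI replicate 2, against 5.58 to 5.59 in the other AI arrays, at a signal below the array's median. AD replicate 4 stood apart for Aldoc at 10.37 log2 (others 9.70 to 9.81), for Itpr2 at 6.39 log2 (others 6.27 to 6.28) and for Nfyc at 8.59 log2 (others 9.21 to 9.28). Fn1 was at 10.50 log2 in AD replicate 1 (others 10.62 to 10.64), and Orai3 was at 8.75 log2 in AI replicate 3 (others 8.51 to 8.55).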

How the results depend on the processing

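Padi2 and Padi3 kept their direction under every alternative run, and leaving out any 1 array gave log2 differences between -2.15 and -2.02 and between 1.38 and 1.55. Without single arrays Padi1 had 0.02 to 0.10, Padi4 -0.35 to -0.25 and Padi6 -0.05 to 0.01. After median centring, which moved the median of all clusters to 0.08 log2, Padi1 had 0.134 and Padi6 0.059. At 2-fold, 254 clusters were called, and 0 genes of the glial, oocyte, citrullinated, free arginine, calcium, regulator and neighbour lists. Median centring left 2 calcium genes, 0 neighbours and 0 free arginine genes, and gave 1 epidermis gene. Quantile normalization left 4 calcium genes and 0 free arginine genes and gave 1 epidermis gene, and the mean of clusters left 0 regulators. Without single arrays, 1217 clusters (without AI replicate 3) to 1636 (without AD replicate 4) were called, 4 to 5 calcium genes, 0 to 1 free arginine genes (0 without AD replicate 1 or AI replicate 2) and 0 to 1 epidermis genes (1 without AI replicate 1). Th, called at 0.60, fell below 1.5-fold with array weights and without AD replicate 3 or AI replicate 4, with 0.55 as the lowest value. Of genes that were not called, Elane turned to 0.022 and Hand2 to 0.072 with median centring, Ptprc to 0.069 with it and to 0.006 with quantile normalization, and with array weights Hand2 turned to 0.013 and Mbp to -0.009. Without single arrays Hand2 ran from -0.039 to 0.035, Mbp from -0.042 to 0.029 and Ptprc from -0.036 to 0.044. Deviations of arrays with the same replicate number correlated at -0.17 to 0.08, so no pairing by number was seen in the signals. Whether such arrays were handled together was not tested. With a replicate block 1352 clusters were called, Padi2 had -2.09 and Padi3 1.49, and no list changed its count. Dim signals limit what can be said of Padi1, Padi4, Padi6 and Padi3 in AI cells.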
